A study of Mus musculus with 48 samples.

Results

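Junctions were followed at 5 V segments in the D-near end of Igh, the mouse antibody heavy chain locus: Ighv5-4, Ighv5-6, Ighv5-9, Ighv5-12 and Ighv5-9-1. They belong to the Ighv5 family and lie farther from D than its member Ighv5-2. A junction was counted to a gene when it lay in a fixed window at the 3′ end of that gene in the mm9 build. The 5 genes are 5 of 112 annotated VH genes, and their windows held 28234 of 605816 VH junctions, or 4.66%. The ends of each window coincide with junction positions of these same libraries, so it is no result that all 5 windows held junctions. In LAM-HTGTS, a primer at a bait segment is extended by linear amplification, and each product is read across the joint into its partner DNA, called the prey. Here the bait was JH1 to JH4, and the series asks whether scanning by RAG depends on VH orientation, and what cohesin-based contraction of Igh does.

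A heavy chain gene is assembled in 2 steps, D to JH and then VH to DJH, by the RAG1/RAG2 endonuclease, which cuts next to recombination signal sequences. Such a signal has a heptamer at the coding border, a spacer and a nonamer. Chromatin is thought to be reeled past RAG at the JH end by cohesin, a ring complex that extrudes loops until it meets bound CTCF or is released by Wapl. The Ighv5 and Ighv2 families of the D-near end are known for CTCF sites just downstream of their signals and for high use when scanning is short.

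The 25 libraries fall into 8 groups. Bone marrow (BM) pro-B cells of C57BL/6 mice gave 3 wild-type libraries (WT BM) and 4 from mice with an Igh inversion (INV BM); the labels call both RAG1 deficient, although their lists hold VH junctions. These cells were purified on anti-B220 beads and cultured for 4 to 5 days with the cytokines IL-7 (10 ng/mL) and SCF (2 ng/mL). The other 18 libraries came from pro-B lines transformed by v-Abl that were RAG1 deficient, carried OsTIR1 and Emu-Bcl2, and received RAG1/2 by retrovirus. A parental line (titled Primary) was left untreated, that is, held for 4 days in STI-571 (3 uM), which blocks the Abl kinase and arrests such lines. A Wapl-degron line, and a Wapl-degron line labelled Single Igh (single-Igh here), were each left untreated in the same way or treated. Treatment (IAA/Dox) was STI-571 alone for 1 day, then 150 uM IAA and 2 mg/mL Dox with STI-571 for 3 days. IAA makes OsTIR1 direct a degron-tagged protein to degradation. A treated inverted line (single-Igh INV) carries INV in its title, while its genotype label does not list the inversion. Each of these 6 line groups had 3 libraries. Inversion breakpoints and Wapl protein levels are absent from the labels, and how many clones stand behind a line is not stated.

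All 5 genes lie on the minus strand of chromosome 12 in mm9. Positions and distances from D given here are those of mm9, without the inversion. Those on the inverted locus are not known from the labels. Ighv5-4 (annotated as Gm16971, 114835657 to 114836116) is nearest to D, 69.4 kb from the end of the D region. Ighv5-6 (Gm16891, 114863717 to 114864167) follows at 97.45 kb and Ighv5-9 (Gm16949, 114899980 to 114900439) at 133.7 kb. Ighv5-12 (Gm16592, 114940335 to 114940789) is at 174.1 kb and Ighv5-9-1 (Gm16886, 114974322 to 114974781) at 208.1 kb. The lines below show the last bases of each V coding exon and the signal after it, where RAG cuts, read on the minus strand of mm9. Capitals mark the heptamer, the nonamer and the longest run of bases that all 5 genes share after the nonamer, which holds a core like that of known CTCF motifs.

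Ighv5-4, chr12:114835585-114835671: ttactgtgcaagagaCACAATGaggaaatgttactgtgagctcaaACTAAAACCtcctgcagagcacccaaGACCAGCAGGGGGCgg
Ighv5-6, chr12:114863645-114863731: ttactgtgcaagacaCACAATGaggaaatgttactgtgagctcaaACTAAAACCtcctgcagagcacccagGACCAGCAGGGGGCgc
Ighv5-9, chr12:114899908-114899994: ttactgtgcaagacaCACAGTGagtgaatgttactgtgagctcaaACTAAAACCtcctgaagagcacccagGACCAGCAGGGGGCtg
Ighv5-12, chr12:114940263-114940349: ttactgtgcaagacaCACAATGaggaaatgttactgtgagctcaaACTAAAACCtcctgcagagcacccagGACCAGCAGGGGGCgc
Ighv5-9-1, chr12:114974250-114974336: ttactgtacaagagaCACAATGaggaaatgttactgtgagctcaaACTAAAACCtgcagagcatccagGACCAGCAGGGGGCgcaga

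The signals of the 5 genes are nearly the same, with a spacer of 23 bases in each. Ighv5-9 is the exception at the heptamer, with the consensus CACAGTG, where the other 4 genes have CACAATG. Of 91 VH genes with CAC at the annotated gene end, 71 have CACAGTG and 9 have CACAATG. The nonamer ACTAAAACC is shared by all 5 genes and is found in 6 of the 91. The shared run after it, GACCAGCAGGGGGC, starts 17 bases past the nonamer in Ighv5-4, Ighv5-6, Ighv5-9 and Ighv5-12, and 14 bases past it in Ighv5-9-1. The run was picked because the 5 genes share it, so their own matches are no result. Searched on both strands within 150 bp after the gene end, where it overlaps no other motif named here, it was found at 10 of 112 VH genes (8.93%): 7 of 10 Ighv5 genes, these 5 included, 3 of 10 Ighv2 genes and 0 of 92 genes of other families. V exons of the 5 genes were 92.2% to 95.4% identical. The 300 bp after the gene were more unequal: Ighv5-6 and Ighv5-12 were 98.3% identical there and Ighv5-4 and Ighv5-9 95%, while Ighv5-4 and Ighv5-6 were 66% identical. With sequences this close, the mapping filters could move or leave out junctions, and this was not tested.

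The lists held 61194 to 1016401 junctions per library, and VH junctions were 6.04% to 45.5% of WT BM lists, 8.40% to 11.7% of INV BM lists and 0.235% to 4.94% of line lists. The JH-region share of WT BM lists ran from 5.06% to 87.4%, so levels are given per 100000 junctions of the library and as a percent of VH junctions. Some treated libraries shared joints (same bait end, prey position and inserted sequence of at least 10 bp). The 3 Wapl-degron IAA/Dox libraries shared 32.2% to 50.4% of their joints pairwise, single-Igh IAA/Dox replicates 1 and 3 shared 62.5%, and single-Igh INV IAA/Dox replicates 2 and 3 shared 69.6%. The other 20 pairs within a group shared 0% to 14.3% (median 4.38%) and were counted as separate samples. Between groups, 251 pairs shared 0% to 9.58% (median 0.167%). Counts over VH segments of single-Igh IAA/Dox replicates 1 and 3 showed no difference beyond sampling noise (chi-square p 0.442, against 1.76e-37 and 7.52e-37 for the other pairs of that group), and these libraries were also counted as 1 sample. This check did not separate merged from unmerged pairs elsewhere. Among Wapl-degron IAA/Dox libraries chi-square p was 0.056, 8.73e-07 and 1.08e-06. For single-Igh INV replicates 2 and 3 it was 0.0232, against 0.144 and 0.198 for the pairs with replicate 1. In Wapl-degron IAA/Dox replicate 2, 28.4% of lines were surplus to its read names. Bait use was unequal between line libraries. Parental replicate 1 was 92.3% JH4, single-Igh untreated replicate 1 was 99.99% JH2 and single-Igh INV replicate 1 was 100% JH1. Wapl-degron untreated replicate 1 had 0% JH2. Single-Igh IAA/Dox replicates 1 and 3 were 81.6% and 80.3% JH1, against 25.1% in replicate 2. Nothing in the labels says that replicates came from separate cultures or mice, so p-values measure only the spread between these libraries.

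In untreated lines and in WT BM, Ighv5-4 was the most used of the 5 genes in every library and Ighv5-9 or Ighv5-9-1 the least used. A joint falls at 1 end of a gene, so gene length does not enter these levels. Ighv5-4 took 7.02% to 7.55% of VH junctions in the parental line, 6.90% to 7.88% in the untreated Wapl-degron line and 6.62% to 8.25% in the untreated single-Igh line. Ighv5-6 took 3.79% to 5.33% over these 9 libraries and Ighv5-12 took 2.71% to 5.01%. These ranges overlap, and Ighv5-12 was above Ighv5-6 in parental replicate 1. Ighv5-9-1 took 0.289% to 1.14%, and Ighv5-9, with the consensus heptamer, took 0.0487% to 0.541% from 2 to 15 junctions per library. All 5 genes together made up 14.9% to 17.9% of VH junctions in the 9 untreated line libraries.

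In WT BM, Ighv5-4, Ighv5-6 and Ighv5-12 took smaller shares of VH junctions than in any untreated line library, while the shares of Ighv5-9 and Ighv5-9-1 overlapped those of the lines. How many of all segments separated from these 9 libraries in the same way is not given here. In the test against the parental line alone, given below, 3.8% of 184 segments were called lower when scaled to VH junctions. Ighv5-4 took 2.10%, 2.53% and 2.57%, Ighv5-6 took 1.22%, 1.26% and 1.47%, and Ighv5-12 took 1.09%, 1.38% and 1.13%. Ighv5-9-1 took 0.512%, 0.543% and 0.596%, and Ighv5-9 took 0.339%, 0.238% and 0.301%. Ighv5-6 and Ighv5-12 did not separate in this order, since Ighv5-12 was the higher of the pair in replicate 2. Per 100000 junctions, WT BM levels spanned 155 to 955 for Ighv5-4 and 18.2 to 154.5 for Ighv5-9, with replicate 1 highest for every gene.

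**Figure D1:**
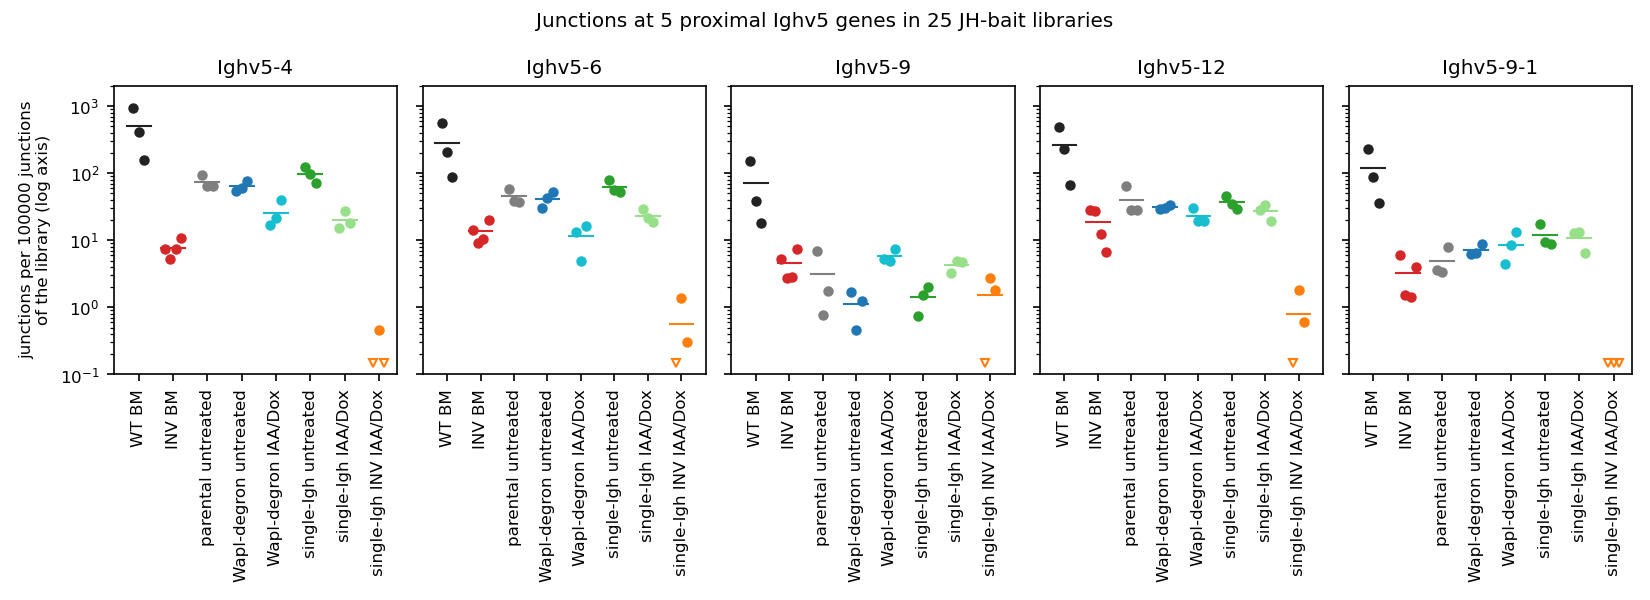
Junctions per 100000 junctions of the library (log axis) at each of the 5 genes in 25 libraries of 8 groups. Filled points are libraries, horizontal lines are group means and open triangles at the lower edge are libraries with 0 junctions. WT BM lies highest for each gene, Ighv5-9 is low in untreated lines, and the single-Igh INV line reaches at most 2.73.

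**Figure D2:**
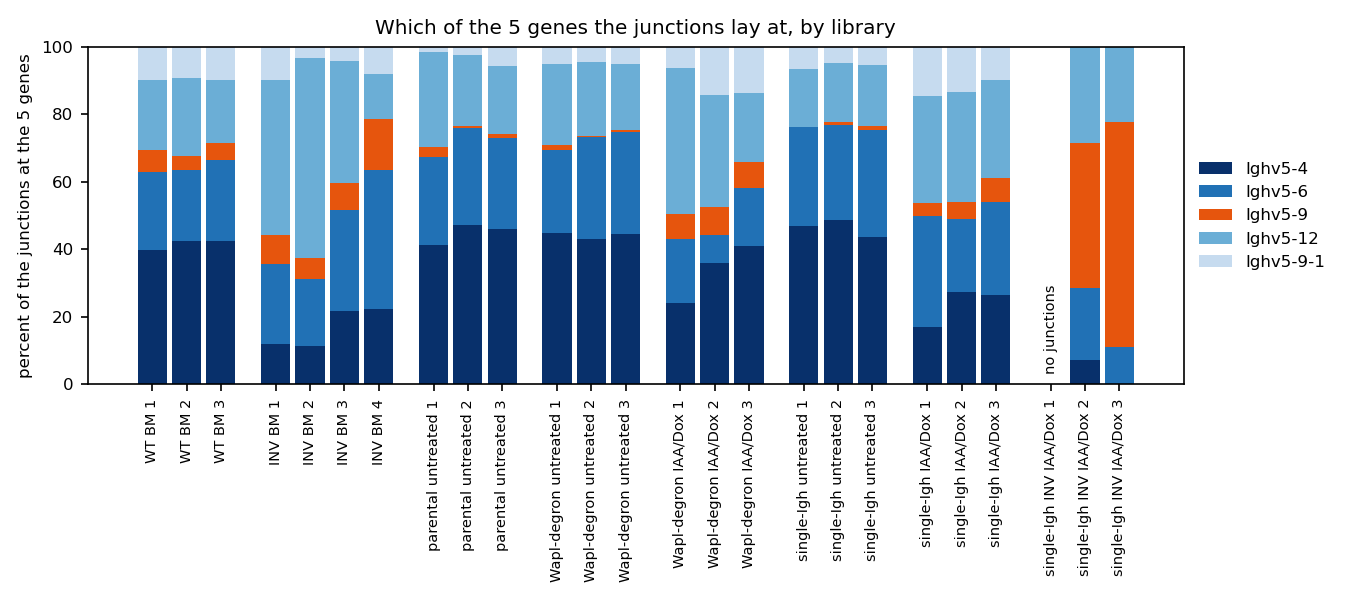
Share of each gene in the junctions at the 5 genes (percent, stacked bars, 1 bar per library). Ighv5-4 takes 39.9% to 48.6% in WT BM and untreated lines and 11.3% to 22.2% in INV BM; single-Igh INV IAA/Dox replicate 1 held no junction at these genes.

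Relative to all junctions of the library, the D-nearest pair was lower after treatment of the Wapl-degron line, and the farther pair was not called. Ighv5-9 was higher on this scale, as were most segments tested, but not when scaled to VH junctions. Ighv5-4 stood at 55.0, 60.5 and 76.9 junctions per 100000 untreated and at 16.8, 21.2 and 39.3 after IAA/Dox. Ighv5-6 stood at 30.2, 42.7 and 52.0 untreated and at 13.2, 4.86 and 16.4 after IAA/Dox. Ighv5-9 stood at 1.68, 0.459 and 1.23 untreated, from 4, 4 and 10 junctions, and at 5.29, 4.86 and 7.36 after IAA/Dox, from 6, 11 and 9 junctions. For these 3 genes no treated library overlapped an untreated one. Of all 128 segments tested, 89.8% lay above in every treated library, as Ighv5-9 did, and 3.91% lay below, as Ighv5-4 and Ighv5-6 did. Ighv5-12 stood at 29.4, 30.5 and 33.5 untreated and at 30.01, 19.4 and 19.6 treated, and Ighv5-9-1 at 6.30, 6.42 and 8.83 untreated and at 4.41, 8.40 and 13.1 treated, and both overlapped.

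Counts over VH segments were tested with limma (voom, Benjamini-Hochberg adjusted p under 0.05, total junctions as library size). Ighv5-4 fell by 1.47 on the log2 scale (SE 0.31, adjusted p 3.19e-06) and Ighv5-6 fell by 2.27 (SE 0.44, adjusted p 3.48e-07). Without treated replicate 2 the change at Ighv5-6 was -1.53 (adjusted p 0.00384). Ighv5-9 rose by 2.54 (SE 0.70, adjusted p 0.000357), which rests on few events. Its 26 treated junctions came from 7 distinct joints and its 18 untreated ones from 14. Ighv5-12 had a log2 fold change of -0.52 (SE 0.33, adjusted p 0.129) and Ighv5-9-1 one of 0.17 (SE 0.52, adjusted p 0.742; 95% interval -0.86 to 1.20). Of all 128 segments tested, 90.6% were called higher and 3.91% lower, that is 5 segments, Ighv5-4 and Ighv5-6 among them. The median over all segments was 4.88, and all 5 genes lay below it. These p-values count the 3 treated libraries, which share joints, as separate samples. With them merged as 1 sample the changes were -1.40 at Ighv5-4, -2.13 at Ighv5-6 and 2.51 at Ighv5-9, and no p is given, since the treated arm then has no spread of its own.

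The scale decides what is said of the farther genes. Treated libraries had more VH junctions, 3.27% to 4.63% of the list against 0.798% to 0.977% untreated. As a share of VH junctions all 5 genes together went from 15.4% to 17.7% down to 1.80% to 2.07%. Scaled to VH junctions, Ighv5-4 fell by 3.49, Ighv5-6 fell by 4.32, Ighv5-12 fell by 2.57 (adjusted p 2.79e-15) and Ighv5-9-1 fell by 1.86 (adjusted p 0.000142). Ighv5-9 was then at 0.51 (adjusted p 0.445), the median over all segments was 2.80, and 108 segments were called higher and 12 lower, against 116 and 5. The share called lower was 9.38%, and 10.2% lay below in every treated library. On this scale only Ighv5-9, among the 5 genes, overlapped between treated and untreated libraries.

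In the single-Igh line the levels moved in a like way. Ighv5-4 stood at 126, 96.6 and 72.5 junctions per 100000 untreated and at 15.0, 27.8 and 17.8 after IAA/Dox. Ighv5-6 stood at 78.1, 56.5 and 52.3 untreated and at 29.0, 21.8 and 18.8 treated. Ighv5-9 stood at 0.744, 1.54 and 2.01 untreated, from 2, 11 and 11 junctions, and at 3.22, 4.96 and 4.69 treated, from 3, 10 and 5 junctions. These 3 genes did not overlap between the groups, where 82.1% of all 134 segments lay above in every treated library and 3.73% below. Ighv5-12 stood at 45.7, 34.7 and 29.6 untreated and 27.9, 33.3 and 19.7 treated, and Ighv5-9-1 at 17.5, 9.51 and 8.97 untreated and 12.9, 13.4 and 6.57 treated, so both overlapped.

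With replicates 1 and 3 of the treated group counted as 1 sample, limma called 2 of the 5 genes. Ighv5-4 fell by 2.09 (SE 0.37, adjusted p 9.05e-07) and Ighv5-6 fell by 1.37 (SE 0.35, adjusted p 0.000343). Ighv5-9 had a log2 fold change of 1.67 (SE 0.88, adjusted p 0.0667), Ighv5-12 one of -0.32 (adjusted p 0.372) and Ighv5-9-1 one of 0.12 (adjusted p 0.822). In this fit 91% of 134 segments were called higher and 3.73% lower. With every library as a sample, 92.5% were called higher and 3.73% lower, Ighv5-4 fell by 2.08 (adjusted p 6.06e-05), Ighv5-6 fell by 1.37 (adjusted p 0.000368), and Ighv5-9 rose by 1.67 (adjusted p 0.0211). That call at Ighv5-9 was also lost on leaving out any of the treated replicates 1, 2 or 3 (adjusted p 0.0633, 0.113 and 0.132), and with distinct junctions counted once (1.02, adjusted p 0.0907). Scaled to VH junctions, Ighv5-4 fell by 4.02, Ighv5-6 fell by 3.30, Ighv5-12 fell by 2.24 (adjusted p 6.63e-06) and Ighv5-9-1 fell by 1.82 (adjusted p 0.00114), while Ighv5-9 was at -0.23 (adjusted p 0.745). On that scale 98 segments were called higher and 10 lower (7.46%), and the median over all segments was 3.11.

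The difference between the treatment effects in the Wapl-degron and single-Igh lines was tested as an interaction. It was 0.61 (SE 0.48) for Ighv5-4, -0.94 (SE 0.56) for Ighv5-6, 0.85 (SE 1.03) for Ighv5-9, -0.21 (SE 0.46) for Ighv5-12 and 0.07 (SE 0.72) for Ighv5-9-1. None was called, and 0% of 160 segments were called, with 17 at an unadjusted p under 0.05. The intervals are wide: for Ighv5-6 the 95% interval ran from -2.05 to 0.17.

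The ratio of the nearest to the farthest gene needs no scaling between libraries. The log2 ratio of Ighv5-4 to Ighv5-9-1 (0.5 added to each count) was 3.08, 3.22 and 3.11 in the untreated Wapl-degron line and 1.83, 1.31 and 1.56 after IAA/Dox. It was 2.84, 3.34 and 3.00 in the untreated single-Igh line and 0.21, 1.04 and 1.38 after IAA/Dox. Every treated library was below every untreated one in both lines. The difference in means was -1.58 in the Wapl-degron line (two-sided exact permutation p 0.1, the smallest that 3 against 3 allow, adjusted 0.2 over 6 comparisons). It was -2.18 in the single-Igh line (exact permutation p 0.1, adjusted 0.2), or -2.15 with replicates 1 and 3 counted as 1 sample (exact permutation p 0.2, the smallest that 2 against 3 allow). Merging the treated Wapl-degron libraries left 1 value, 1.51, and no test. Within the sequencing run of treated Wapl-degron replicate 2 and untreated replicates 1, 2 and 3, the difference was -1.83. Within that of treated single-Igh replicates 2 and 3 and untreated replicate 2, it was -2.13.

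**Figure D3:**
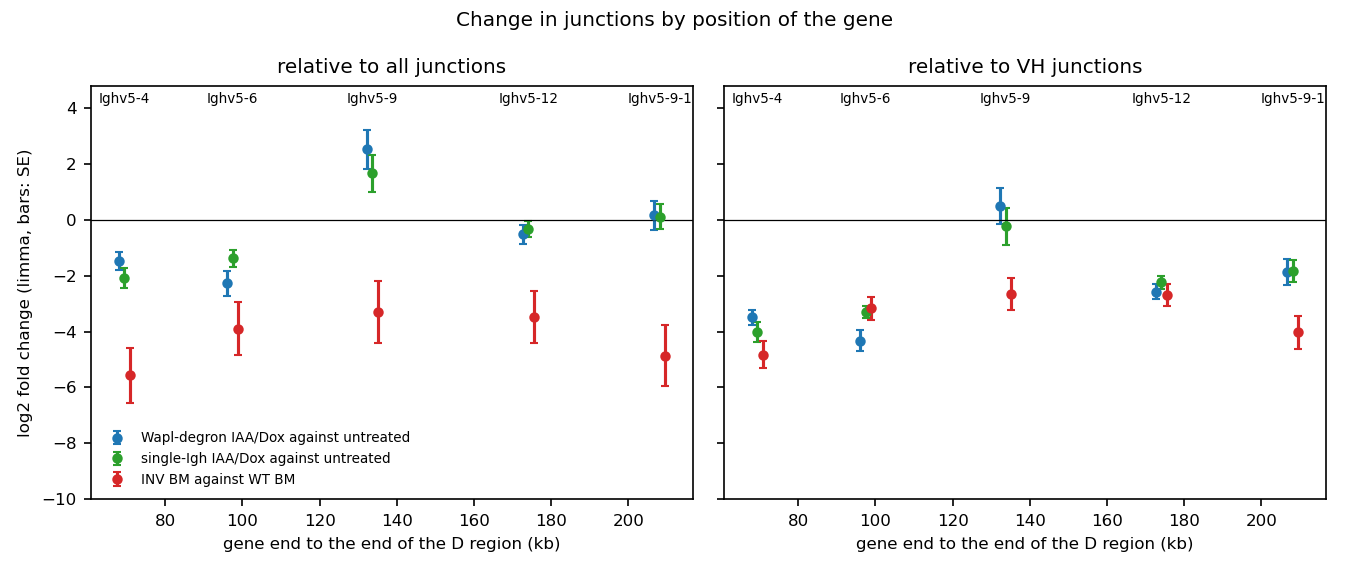
Log2 fold change (limma, bars show SE) of each gene against the distance of its end from the end of the D region (kb), relative to all junctions (left) and to VH junctions (right). Distances are those of mm9 without the inversion, also for INV BM. Blue and green are IAA/Dox against untreated in the Wapl-degron and single-Igh lines with each library as a sample, and red is INV BM against WT BM; red lies below 0 for all 5 genes on both scales, and Ighv5-9 is the highest blue and green point.

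All 5 genes were used less in INV BM than in WT BM. Per 100000 junctions, Ighv5-4 stood at 955, 416 and 155 in WT BM and at 7.39, 5.21, 7.50 and 10.97 in INV BM. Ighv5-6 stood at 554, 207 and 88.5 in WT BM and at 14.4, 9.19, 10.3 and 20.4 in INV BM. Ighv5-12 stood at 495, 227 and 68.0 in WT BM and at 28.0, 27.3, 12.5 and 6.62 in INV BM. No INV BM library reached the lowest WT BM library at any of the 5 genes, nor as a share of VH junctions, and 45.1% of all 273 segments lay below in the same way on either scale. Ighv5-9 stood at 154.5, 39.1 and 18.2 against 5.35, 2.76, 2.85 and 7.37. Ighv5-9-1 stood at 233.0, 89.2 and 36.0 against 5.98, 1.53, 1.43 and 3.97.

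Ighv5-4 was lower by 5.57 on the log2 scale (limma log2 fold change -5.57, SE 0.97, adjusted p 3.58e-07) and Ighv5-9-1 changed by -4.86 (SE 1.08, adjusted p 4.16e-05). Ighv5-6 changed by -3.90 (SE 0.95, adjusted p 0.00021), Ighv5-12 by -3.48 (SE 0.94, adjusted p 0.000816) and Ighv5-9 by -3.30 (SE 1.10, adjusted p 0.00717). All 5 stayed called on leaving out any 1 of the 7 libraries, but the sizes rest on WT BM replicates 1 and 3, whose removal moved each fold by over 1.5 times. Without replicate 1, the highest of WT BM, the changes were -4.95 at Ighv5-4, -3.25 at Ighv5-6, -2.47 at Ighv5-9, -2.83 at Ighv5-12 and -4.14 at Ighv5-9-1. Without replicate 3, the lowest, they were -6.31, -4.59, -4.04, -4.33 and -5.54 in the same order. The background was high, with 44.7% of 273 segments called lower and a median of -2.16 over all segments. Among annotated VH segments alone, these 5 genes included, 91 of 107 were called lower, with a median of -4.33. Ighv5-6, Ighv5-12 and Ighv5-9 changed by less than that median. Scaled to VH junctions, the 5 changes were -4.83, -3.17, -2.66, -2.70 and -4.02 in the same gene order as above, and all were called. On this scale 45.1% of segments were called lower, and the median over all segments was -1.49. There 62 segments were called higher and 123 lower, against 26 and 122 with all junctions. A quasi-binomial model per segment called 0 of 273 segments, with 4 at an unadjusted p under 0.05, and gave adjusted p 0.405 for each of the 5 genes. For comparison, Ighv5-2, the gene of the family next to D in mm9, was higher in INV BM by 2.80 (SE 0.55, adjusted p 4.36e-06). A second cluster of junctions at that gene changed by 1.88 (SE 1.69, adjusted p 0.316) and was not called. The difference of Ighv5-2 from the 5 genes was not tested.

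Ighv5-12 became the most used of the 5 genes in INV BM replicates 1, 2 and 3, with 220, 89 and 35 junctions against 58, 17 and 21 at Ighv5-4. In replicate 4 Ighv5-6 led with 108 junctions. The log2 ratio of Ighv5-4 to Ighv5-9-1 was 0.30, 1.67, 2.26 and 1.44 in INV BM and 2.03, 2.22 and 2.11 in WT BM. Their means differed by -0.70 (two-sided exact permutation p 0.229, adjusted 0.343, smallest possible p 0.0571). This size rests on INV BM replicate 1: without it the difference was -0.33 (exact permutation p 0.4, smallest possible 0.1). By sequencing run it was -0.37 between INV BM replicates 2, 3 and 4 and WT BM replicates 2 and 3, and -1.73 between replicate 1 of each group, a single library on either side. Bait use of WT BM libraries differed widely (JH1 7.59% to 43% of junctions), and from the JH1 bait alone Ighv5-12 changed by -5.69 (adjusted p 8.9e-05), a larger change than with all baits.

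In the treated single-Igh INV line the 5 genes held 23 junctions in all: 0 in replicate 1, 14 in replicate 2 and 9 in replicate 3. Ighv5-9 held 12 of them, 6 in each of replicates 2 and 3, and was the most used gene there. Ighv5-4 held 1, Ighv5-6 held 4, Ighv5-12 held 6 and Ighv5-9-1 held 0. The 12 junctions at Ighv5-9 came from 2 distinct joints, and replicates 2 and 3 shared joints, so these counts stand for few events.

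Set against the treated single-Igh line without the inversion, the pooled share of Ighv5-4 was 0.00739 times as high (exact 95% interval 0.000185 to 0.0423, which covers counting error only). The same ratio was 0.0289 (0.00771 to 0.0766) for Ighv5-6, 0.0346 (0.0124 to 0.0777) for Ighv5-12 and 0.439 (0.193 to 0.962) for Ighv5-9. For Ighv5-9-1 the pooled ratio was 0 (0 to 0.0549). Taken instead as means per library, against a floor of 3 counts in each, Ighv5-9-1 was at least 4.58-fold lower. With the libraries that share joints merged, limma called Ighv5-4 (adjusted p 1.31e-05), Ighv5-6 (0.00021), Ighv5-12 (0.000212) and Ighv5-9-1 (0.000176) lower, but not Ighv5-9 (log2 fold change -1.40, SE 1.20, adjusted p 0.25). That fit had 2 samples in each group, and 1 INV sample, replicate 1, held 0 junctions at the 5 genes. The 4 called genes passed the filter of 10 junctions only through the group without the inversion, with 89, 91, 114 and 46 junctions there. Their calls add no support beyond these counts. Ighv5-2 changed the other way from these 4, higher in the INV line by 1.19 with each library as a sample (SE 0.37, adjusted p 0.00295), and its difference from them was not tested. In the merged fit 89.7% of 136 segments were called lower, and 94.9% with each library as a sample, where the median over all segments was -5.23. VH junctions were 0.235% to 0.523% of the INV lists and 4.55% to 4.94% of the lists without the inversion. Scaled to VH junctions, Ighv5-9 turned direction to 2.11 (2.06 with libraries merged), none of the 5 was called, 60 of 136 segments had an unadjusted p under 0.05, 5 segments were called higher and 45 lower (4 and 129 with all junctions), and the median was -1.81. The log2 ratio of Ighv5-4 to Ighv5-9-1 rests on at most 1 junction in the INV libraries and is not read (difference -0.35, exact permutation p 0.6).

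The inversion effect was compared between marrow and the treated line as an interaction. It was 0.08 (SE 1.38) for Ighv5-4, 0.86 (SE 1.34) for Ighv5-6, -1.84 (SE 1.47) for Ighv5-9, 1.14 (SE 1.37) for Ighv5-12 and 0.48 (SE 1.51) for Ighv5-9-1, none called, where 8.48% of 283 segments were called. These 24 calls became 1 when libraries that share joints were merged, 63 without WT BM replicate 1, 11 without single-Igh IAA/Dox replicate 1 or 3 or single-Igh INV replicate 2, and 8 without single-Igh INV replicate 3. Scaled to VH junctions, 19.4% of the segments were called, Ighv5-9 among them at -4.75 (adjusted p 0.00704). The other 4 genes turned direction on that scale, to -2.67 at Ighv5-4, -1.85 at Ighv5-6, -1.51 at Ighv5-12 and -2.19 at Ighv5-9-1, none called.

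Junctions on the inverted locus also lay at another place and on the other strand. A usual VH joint sits at the coding end with the prey on the plus strand, reading into the V gene. In WT BM, 138 of 18300 junctions at the 5 genes were on the minus strand, and 127 of these lay within 3 bases of the coding end. In INV BM, 110 of 988 were on the minus strand (11.1%), and 81 of these lay 22 to 26 bases beyond the coding end, inside the spacer, where WT BM had 0. The libraries of INV BM had minus-strand shares of 9.38%, 16%, 3.09% and 14.6%, against 4.77%, 4.92%, 5.44% and 5.17% for all their VH junctions, so replicate 3 was below its background. WT BM libraries had 0.177%, 0.963% and 1.96%, against 0.448%, 0.597% and 0.575% for all their VH junctions. The groups did not overlap at the 5 genes, nor over all VH junctions. The range of 22 to 26 bases was chosen after the junctions were seen, and no test was run on these shares.

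A short sequence shared by these genes lies at this position. TACTGTG at bases 17 to 23 after the gene end reads CACAGTA on the plus strand, which starts with CAC as heptamers do and points the other way. It is found at that place in 9 of 112 VH genes (8.04%), all of them Ighv5 genes and all 5 genes here among them. The lines below give the plus strand of mm9 around that position, with CACAGTA in capitals; the border 24 bases beyond the coding end lies directly before the capitals.

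Ighv5-4, chr12:114835624-114835653: agtttgagctCACAGTAacatttcctcatt
Ighv5-9, chr12:114899947-114899976: agtttgagctCACAGTAacattcactcact
Ighv5-9-1, chr12:114974289-114974318: agtttgagctCACAGTAacatttcctcatt

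Ighv5-4 had 43 of its 154 INV BM junctions on the minus strand, 33 of them 22 to 26 bases beyond the coding end, in 4 of 4 libraries. Ighv5-9-1 had 31 of 77, all 31 at that position, in 3 libraries. Ighv5-12 had 20 of 379 and Ighv5-6 had 16 of 280. Ighv5-9 had 0 of 98, but its window ends 7 bases beyond the coding end and does not reach this place, while the windows of the other 4 genes extend 25 to 42 bases beyond theirs. Counted without regard to the windows, Ighv5-9 still had 0 minus-strand junctions 22 to 26 bases beyond its coding end in the 25 libraries. The 81 junctions at that position were 27 distinct joints. In the single-Igh INV line all 4 junctions at Ighv5-6 were at this position and came from 1 distinct joint. Such junctions are few elsewhere: 1 was found in 9 untreated and 6 treated line libraries without the inversion. Treated lines still had minus-strand shares of 2.94% to 13.4% at the 5 genes, from 7 distinct joints in each line, none at this position. Over all VH junctions the minus-strand share of these 6 libraries was 1.26% to 1.61%, below that at the 5 genes in each of them.

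Farther out, beyond the windows of the rule, a larger set of minus-strand junctions lay next to Ighv5-4 and Ighv5-9. Both genes hold a second TACTGTG at bases 123 to 129 after the gene end, whose border is 130 bases beyond the coding end; the other 3 genes do not have it within 150 bp. At Ighv5-4, 133 of 527 minus-strand junctions outside the window lay exactly at that border, the commonest place. At Ighv5-9 only 1 of 89 lay at the border, with 41 at 132 and 24 at 133 bases beyond the coding end. The line below shows the border next to Ighv5-4 on the plus strand of mm9, with CACAGTA in capitals.

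Ighv5-4, chr12:114835518-114835547: gtatatcctaCACAGTAatacatggctgtg

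Minus-strand junctions 125 to 145 bases beyond the coding end of Ighv5-4 numbered 142, 94, 67 and 108 in the INV BM libraries, or 18.1, 28.8, 23.9 and 20.4 per 100000. WT BM had 5, 0 and 0. The single-Igh INV line had 2, 40 and 57, or 3.27, 18.2 and 17.3 per 100000, while single-Igh IAA/Dox had 0, 0 and 0 and Wapl-degron IAA/Dox had 2, 0 and 2, or 1.77, 0 and 1.64 per 100000. In INV BM these 411 junctions, 126 distinct joints, outnumber the 154 junctions in the window of Ighv5-4 itself. Next to Ighv5-9 there were 56, 18, 8 and 2 in INV BM, 0, 1 and 3 in the single-Igh INV line, 1 in Wapl-degron IAA/Dox and 0 in WT BM. Next to Ighv5-6, Ighv5-12 and Ighv5-9-1 there were 0 in all 25 libraries. No test was run on these counts, which depend on a place chosen after the junctions were seen.

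**Figure D4:**
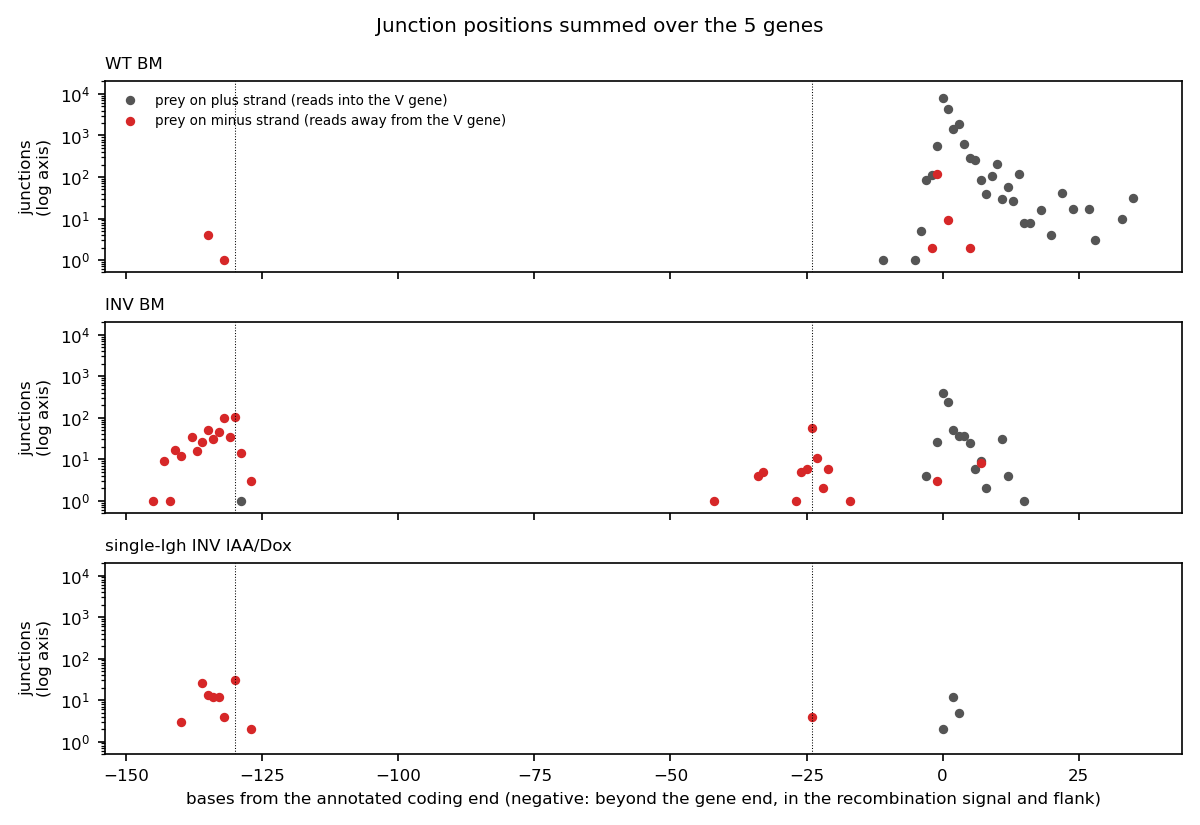
Junctions summed over the 5 genes (log axis) by distance from the annotated coding end in bases, negative values lying beyond the gene end, for WT BM, INV BM and the single-Igh INV line. Grey points are plus-strand prey and red points minus-strand prey; dotted lines mark 24 and 130 bases beyond the coding end, where INV BM has red points; WT BM has none near the first line and 5 junctions near the second.

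The untreated Wapl-degron line was set against the parental line to see whether the degron line differs before treatment. No comparison within a sequencing run was made for these groups, so run differences are not separated from line differences. Ighv5-4 stood at 94.0, 64.4 and 64.7 junctions per 100000 in the parental line, a range that overlaps 55.0 to 76.9 in the Wapl-degron line. The limma log2 fold changes were -0.12 (SE 0.26) for Ighv5-4, 0.01 (SE 0.29) for Ighv5-6, -0.74 (SE 0.80) for Ighv5-9, -0.13 (SE 0.31) for Ighv5-12 and 0.55 (SE 0.47) for Ighv5-9-1. None was called and 0% of 67 segments were called by voom, with 2 at an unadjusted p under 0.05; limma-trend and the quasi-binomial model also called 0. The 95% interval for Ighv5-4 ran from -0.63 to 0.40. The log2 ratio of Ighv5-4 to Ighv5-9-1 was 4.60, 4.21 and 3.02 in the parental line (difference -0.80, exact permutation p 0.4, adjusted 0.48; -1.26 to -0.48 on leaving out a library).

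Against the parental line, the direction in WT BM depended on the scale for 3 of the 5 genes. Here too, no comparison within a sequencing run was made. Per library junction all 5 were higher in WT BM: Ighv5-4 by 2.36 (SE 0.95, adjusted p 0.0201), Ighv5-6 by 2.22 (adjusted p 0.0424), Ighv5-12 by 2.35 (adjusted p 0.0346), Ighv5-9 by 4.49 (adjusted p 0.000564) and Ighv5-9-1 by 4.15 (adjusted p 0.000885). Of 184 segments 67.4% were called higher, and the median was 5.49. Among annotated VH segments alone, these 5 genes included, 96 of 104 were called higher. Their median was 7.29, above the changes at all 5 genes. Scaled to VH junctions, the changes turned to -1.73 at Ighv5-4 (adjusted p 0.00239), -1.81 at Ighv5-6 (adjusted p 0.00191) and -1.61 at Ighv5-12 (adjusted p 0.00976). Ighv5-9 was then at 0.67 and Ighv5-9-1 at 0.17, neither called, the median was 1.39, and 45 segments were called higher and 7 lower (3.8%), against 124 and 0. The quasi-binomial model called 0 segments, with 0 at an unadjusted p under 0.05. Leaving out WT BM replicate 2 or parental replicate 2 or 3 left 2 of the 5 called, and leaving out parental replicate 1 left 3. Leaving out WT BM replicate 1 or 3 moved each fold by over 1.5 times, to 1.74 and 3.12 at Ighv5-4, 1.58 and 2.96 at Ighv5-6, 3.52 and 5.13 at Ighv5-9, 1.72 and 3.27 at Ighv5-12, and 3.51 and 4.90 at Ighv5-9-1, and for Ighv5-9 so did leaving out parental replicate 1 (5.18) or 2 (3.81). The log2 ratio of Ighv5-4 to Ighv5-9-1 was 2.12 ± 0.09 in WT BM and 3.94 ± 0.82 in the parental line (SD, n = 3 each; difference -1.82, exact permutation p 0.1, the smallest possible, adjusted 0.2).

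The inserted bases of each joint gave its reading frame. Distinct joints at the 5 genes were in frame in 51.9%, 34.7% and 35.2% of cases in the WT BM libraries and in 46.8%, 41.7%, 56.4% and 65% in INV BM. The 9 untreated line libraries lay between 28.7% and 34.9%, around the 33.3% that random joining gives. Treated Wapl-degron libraries lay at 31.1%, 30.6% and 27.6%. Treated single-Igh libraries lay at 25.8%, 35.4% and 11.8%, from 31, 99 and 34 joints. Every INV BM library lay above every untreated line library, while WT BM replicate 1 lay well above them, replicate 3 just above and replicate 2 within their range. The INV BM libraries had only 79, 48, 39 and 60 joints. The 95% Wilson interval of INV BM replicate 2 (28.8% to 55.7%) covered 33.3%, and those of replicates 1, 3 and 4 did not. That of WT BM replicate 1 (49.6% to 54.2%) also lay above 33.3%. Intervals wholly below it were found at treated single-Igh replicate 3 (4.67% to 26.6%) and at Ighv5-4 in WT BM replicate 2 (17.1% to 28.2%). These intervals take joints as independent and leave out the spread between libraries. By gene, the WT BM libraries spread widely. Ighv5-4 was in frame in 46.8%, 22.2% and 30.8% of joints, so replicates 2 and 3 were below 33.3%. Ighv5-6 was in frame in 47.7%, 50.5% and 33.3%, and Ighv5-12 in 57.6%, 39% and 38.6%. Ighv5-9-1 was in frame in 57.2%, 43.9% and 48.1%, and Ighv5-9 in 65.5%, 50% and 44.4%, from 116, 24 and 18 joints. Ighv5-9, Ighv5-12 and Ighv5-9-1 were above 33.3% in 3 of 3 libraries. No test was run on frames.

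The D segment inside a joint was named where at least 8 bases matched 1 D. Ighd1-1 (DFL16.1), the D segment at the VH end of the D cluster, was in 66.6% to 82.9% of joints at the 5 genes in untreated lines, against 52.9% to 68.8% of other VH joints. It was higher at the 5 genes in 9 of 9 untreated libraries. After IAA/Dox the Wapl-degron libraries had 51.7%, 53.1% and 46.4% at the 5 genes and 50.7%, 50.3% and 51.8% elsewhere, which overlap. The treated single-Igh libraries had 57.1%, 51.7% and 46.2% at the 5 genes, from 21 to 60 joints, and 50.4%, 43.2% and 49.9% elsewhere, higher at the 5 genes in replicates 1 and 2 and lower in replicate 3. In WT BM the order was the other way in 3 of 3 libraries, 41.1%, 38.6% and 46.3% against 46.8%, 47.8% and 47.9%. In INV BM, with 30 to 49 such joints per library, the 5 genes had 18.4%, 40.6%, 36.7% and 50% against 33.2%, 30.4%, 30.8% and 31.1%, higher in 3 of 4 libraries. No test was run on D use.

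**Figure D5:**
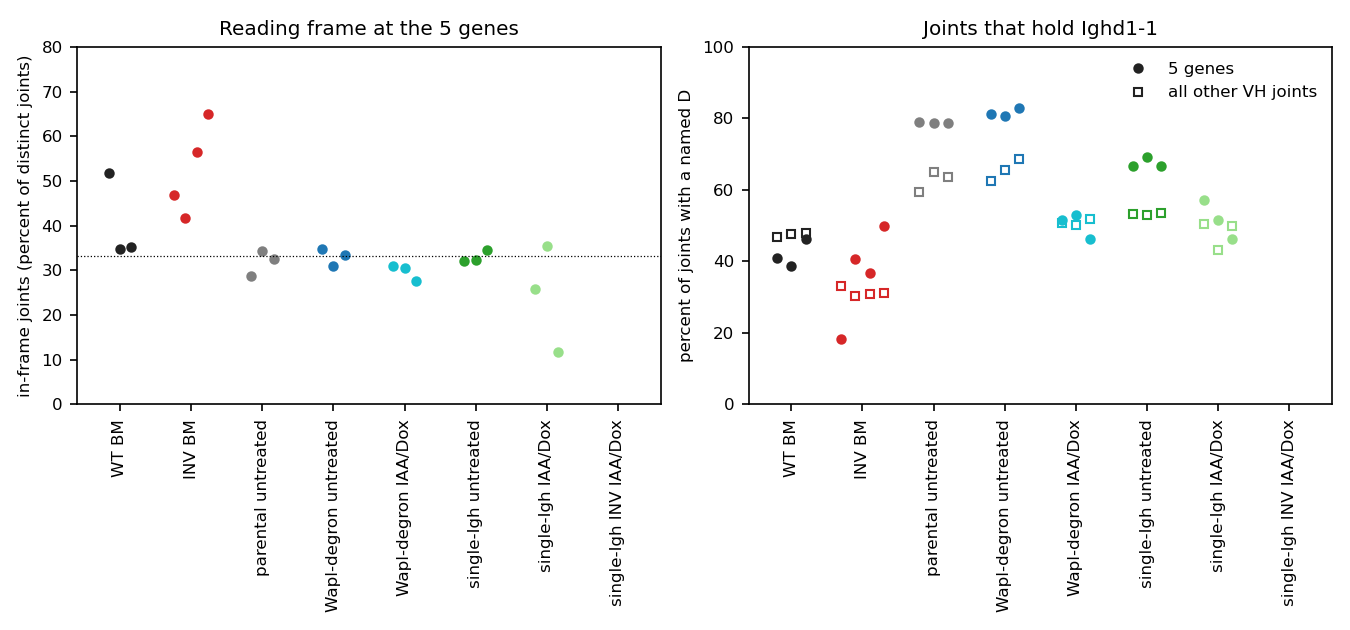
Left, percent of distinct joints at the 5 genes that are in frame, 1 point per library with at least 20 joints, with a dotted line at 33.3%. Right, percent of joints with a named D that hold Ighd1-1, at the 5 genes (filled circles) and at all other VH genes (open squares); in the 9 untreated line libraries each circle lies above its square.

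Other D-near genes of the same families were counted beside the 5. After IAA/Dox in the Wapl-degron line, of the other Ighv5 segments tested 2 of 4 rose and 1 fell (median log2 fold change 1.01), and of Ighv2 segments 2 of 8 rose and 2 fell (median 0.51), where 80 of all 92 annotated VH segments rose and 5 fell (median 4.91). Ighv5-2 was the one of the other Ighv5 segments that fell, by 1.74 (SE 0.17, adjusted p 4.76e-21). In the single-Igh line 3 of 4 other Ighv5 segments rose and 1, Ighv5-2, fell by 1.92 (SE 0.16, adjusted p 1.45e-08; median of the 4, 1.77), and of Ighv2 segments 3 of 8 rose and 2 fell (median 0.16), against 84 of 94 that rose and 5 that fell (median 5.04). In INV BM, 3 of 5 other Ighv5 segments and 8 of 9 Ighv2 segments were lower, as were 91 of 107 annotated segments, and 1 other Ighv5 segment, at Ighv5-2, was higher. The remaining Ighv5 segment, a second cluster at Ighv5-2, was not called. Ighv5-2 was not called in Wapl-degron untreated against parental (-0.16, SE 0.17, adjusted p 0.874) or in WT BM against parental (1.53, SE 0.81, adjusted p 0.0841).

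Over the 25 libraries, the genes whose levels as junctions per library total tracked each member most closely (Pearson r of log2 values, a description over libraries that share groups and depth) were as follows. Ighv5-4 was most like Ighv5-6 (0.965), Ighv2-3 (0.961) and Ighv5-12 (0.928). Ighv5-6 was also close to Ighv2-3 (0.95) and Ighv5-12 (0.939), and Ighv5-12 to Ighv2-3 (0.913). Ighv5-9-1 was most like Ighv5-17 (0.949), Ighv2-5 (0.935) and Ighv5-4 (0.907). Ighv5-9 stood apart, with Ighv14-2 (0.878), Ighv7-1 (0.877) and Ighv1-4 (0.87), none of them an Ighv5 or Ighv2 gene. In 12 Igk-bait libraries 0 of 568001 junctions fell in the 5 windows, which allows a share of up to 0.000528%, and 14 off-target lists of JH-bait libraries held 11 among 103830 junctions.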

How the data were processed

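LAM-HTGTS libraries were aligned with Bowtie2 to mm9, per the submitters' processing notes; versions and thresholds are not given in the sources used here. Per the file headers, the authors' filters covered, among others, mapping quality, mispriming, repeats and duplicate reads. The authors deposited 1 list per library with 1 junction per line, and the positions and other values in it are read as deposited, with no normalization. Each count is a number of such deposited lines; the lists carry no molecular identifiers, so intervals and floors cover counting error only. Windows of the 5 genes were those of the rule, and other VH segments were clusters of junction positions joined over gaps of up to 20 bp (699 segments). All 112 VH genes of the annotation were given RefSeq symbols through synonyms.

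limma 3.58.1 (voom, prior count 0.5, R 4.3.3) was fitted to every segment that held 10 or more junctions over both groups, and p-values were Benjamini-Hochberg adjusted over all of them. The pseudo-count of ratios was 0.5, and single ratios were tested by exact permutation (scipy 1.17.1, Python 3.11.15). The fit was checked on simulated data. Plots used matplotlib 3.10.9. Groups and replicate numbers came from titles; WT BM replicate 4 entered only through its off-target list, and pooled lists and splenic samples were not analysed here. The rule for named genes was the 5 genes in every comparison, Ighv5-2 beside them once, for each of the 5 the 3 genes with the highest correlation over libraries, and the other Ighv5 and Ighv2 genes by counts only; Ighv5-2 is given more often than the rule asks. The shared run after the nonamer, the merged libraries and the near and far minus-strand ranges were chosen after seeing the data. The members and lists were chosen with earlier results of these data known.

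Replicate numbers pair samples where all same-numbered deviations from the group means correlate above 0.1. This held for Wapl-degron untreated against parental (0.35, 0.40 and 0.12), where the replicate block changed no call, and for no other comparison (-0.12 to 0.11).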

Additional observations from a re-analysis of the deposited data

Results flagged for a closer look

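The share of VH junctions at Ighv5-6 in INV BM replicate 4, 0.243%, stood apart from the other 3 libraries (0.105% to 0.123%). The test for a sample far from its group was run on 14 groups of values, and chance marks about 1 in 20.

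Junctions within 150 bp outside the windows, which no comparison used, were above their level in the control libraries at Ighv5-4 and Ighv5-9. At Ighv5-4 they numbered 415 in INV BM against 5 in WT BM, and 99 in the single-Igh INV line against 0 in single-Igh IAA/Dox. At Ighv5-9 they numbered 85 in INV BM against 0 in WT BM, and 4 in the single-Igh INV line against 0.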

How the results depend on the processing

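Alternatives that turned a direction, or moved a count of called genes by over 1.5 times, were as follows; the merged libraries and the JH1 bait alone were chosen after seeing the data, and causes were not tested beyond the scale itself. For Ighv5-9-1 after IAA/Dox in the Wapl-degron line the log2 change was -1.86 with VH junctions as library size, -0.99 with distinct junctions, -1.20 from the JH1 bait, -1.81 with merged libraries on the VH scale and -0.10 to 0.44 on leaving out a library. In the single-Igh line it was -1.82 on the VH scale, -1.41 with distinct junctions, -0.20 with plus-strand prey, -0.08 with limma-trend, -1.83 merged on the VH scale and -0.17 to 0.34 on leaving out a library, and Ighv5-9 was -0.23 on the VH scale and -0.24 merged on that scale. In the INV line, 0 of 5 genes were called on the VH scale (also merged), 1 was called among segments with at least 100 junctions, where 1 member remained, and Ighv5-9 was 2.11, or 2.06 merged. Wapl-degron untreated against parental had no call under any alternative; Ighv5-4 was 0.03 on the VH scale, 0.01 with distinct junctions and -0.27 to 0.02 on leaving out a library, Ighv5-12 was 0.02, 0.05, 0.49 (JH1 bait) and -0.32 to 0.14, and Ighv5-6 was -0.12 with limma-trend, -0.04 with the replicate block and -0.16 to 0.17. WT BM against parental had 3 genes called lower on the VH scale (-1.73, -1.81 and -1.61), 2 called with distinct junctions, 0 with the quasi-binomial model and 2 to 5 on leaving out a library; INV BM against WT BM had 0 with the quasi-binomial model. For the difference of treatment effects, Ighv5-9-1 was -0.01 on the VH scale and -0.21 to 0.34 on leaving out a library, Ighv5-12 was -0.37 to 0.04 and Ighv5-9 was -0.33 with distinct junctions. For the difference of inversion effects 1 gene was called with VH or with D and VH junctions as library size. Ighv5-4, Ighv5-6, Ighv5-12 and Ighv5-9-1 were -2.67, -1.85, -1.51 and -2.19 on the VH scale, -1.43, -0.66, -0.41 and -1.05 on the D and VH scale, and -1.65, -0.68, -0.41 and -1.35 with distinct junctions. Leaving out a library gave -0.77 to 0.77 for Ighv5-4 and -0.22 to 1.17 for Ighv5-9-1. With the replicate block these were -0.45 and -0.03. The replicate block called Ighv5-9 in the INV line (-1.24, adjusted p 0.0362), and it changed no other call at the 5 genes in any comparison; for the difference of inversion effects it moved the segments called from 24 to 48, VH scaling moved them to 55 and distinct junctions to 45. Segments called moved from 121 to 252 and 58 (Wapl-degron IAA/Dox) and from 129 to 233 and 61 (single-Igh IAA/Dox) with a minimum of 1 and 100 junctions, from 129 to 76 with sequencing run as a factor, and in the INV line from 133 to 40 (quasi-binomial), 53 (minimum 100) and 1 (merged, VH scale). Within the 1 run that holds both groups, the Ighv5-4 to Ighv5-9-1 ratio differed by 0.58 between INV replicates 1 and 2 and single-Igh IAA/Dox replicate 1. The INV libraries held at most 1 junction at these 2 genes, and the other library held 14 and 12. Counts were small in the INV line, at 144 to 1685 VH junctions per library, and at Ighv5-9 in untreated lines, at 2 to 15 junctions. The INV lists held 61194 to 328990 junctions in all, so their low VH share (0.235% to 0.523%) enters here as well as depth.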
